A study of Mus musculus with 6 samples.

Results

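Mitoribosomal proteins are the protein subunits of the ribosome inside mitochondria. All of them are encoded in the nucleus, made in the cytosol and imported, and they assemble with the mitochondrial rRNAs into a large and a small subunit. This ribosome translates the few mRNAs of the mitochondrial genome, which encode core subunits of the respiratory chain and of ATP synthase. Some subunits have a homologue in bacterial ribosomes, and others occur in mitochondria alone. The product of Ppargc1a, PGC-1α, coactivates transcription and is known for driving mitochondrial biogenesis, in part through the nuclear factors NRF1, GABP (an ETS-family factor) and ERRα. The question addressed here was whether mRNAs of mitoribosomal proteins differed between microglia that overexpress PGC-1α and control microglia of mice with acute ischemic stroke (AIS).

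The genes were those whose RefSeq symbol begins with Mrpl or Mrps and a number. There were 78 of them among the 23462 named genes on the array, measured by 104 probes. Of these genes, 51 encode large-subunit proteins and 26 small-subunit proteins. The remaining one, Mrps36, kept the symbol of a ribosomal protein but its product is now known as a component of the 2-oxoglutarate dehydrogenase complex. Mrps18a and Mrps30 are named for the small subunit, and their products lie in the large one.

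Microglia, the resident macrophages of the brain, came from mice labelled male and aged 10 weeks. The mice had AIS, modelled in the study by transient occlusion of the middle cerebral artery. The control group consisted of 3 samples from PGC-1α f/f mice, which carry a Pgc-1α construct that is silent until recombination and is linked to eGFP. The mPGC-1α group consisted of 3 samples from PGC-1α f/f Cx3cr1-Cre/ER mice, in which tamoxifen induces the construct in cells that express Cx3cr1. Some circulating myeloid cells express Cx3cr1 as well, and the study left an interval between induction and stroke so that the overexpression would be limited to microglia. Mice of both groups received tamoxifen in the study. Cells were isolated with a P2RY12 selection kit. The interval between AIS and isolation for these arrays, and whether animals were pooled, were not given in the sources used here. As nothing states that the samples of a group were separate animals, the p-values measure the spread between these samples, which may be technical.

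Each sample was hybridised to 1 one-colour Agilent array. Levels are log2 values of the background-corrected signal relative to the array's own 75th percentile, so that 0 is the level of that percentile and a difference of 1 is a doubling. Levels of single probes were compared between samples for one probe and never between probes. The summed level of a list is the log2 of the sum of its genes' levels on the linear scale. It takes 1 probe for every gene of the list on the array, tested or not, and keeps spots marked as outliers. Bright probes weigh most in it. Differences are mPGC-1α minus control, with the standard error (SE) and the 95% interval from limma. Replicates 1 and 2 of both groups shared a slide, and replicates 3 shared another. Between 71% and 86.5% of spots were well above background on an array.

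Before the results, several readings that stood apart from the labels are given. All mice are labelled male, but sex-linked genes differed between control array 2 and the other 5 arrays. Control 2 went with the label, and the other 5 arrays went against it. Xist, the RNA of the inactive X chromosome, was at -5.21 on control 2 and between -0.97 and -0.51 on the other 5 arrays, and the Y-linked genes Ddx3y, Eif2s3y and Uty were highest on control 2. The level of Ppargc1a itself was -1.44, -0.94 and -0.93 in control samples and -1.49, -1.27 and -1.54 in mPGC-1α samples, so that its probe did not show the overexpression. Whether this probe reads the transgene is not known. Cx3cr1, the locus that drives the recombinase, was lower in every mPGC-1α sample (2.38, 1.95 and 2.72) than in the control samples (3.81, 3.28 and 3.71). The summed level of microglial markers was 7.96 to 8.17 in control samples and 8.07 to 8.19 in mPGC-1α samples. Single markers differed more, from -1.38 (Olfml3) to 0.42 (Siglech). The groups did not overlap in 3 of 8 markers with 6 values, Cx3cr1 among them, against 11.2% of all genes with 6 values. As control 2 stood apart from the other 5 arrays in sex-linked genes, results are given also without it.

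Promoters of these genes are shown because the factors through which PGC-1α acts bind such sequences. RefSeq windows of 300 bases, running from 250 bases before the start site to 50 after it (build GRCm38.p6), were found for 69 of the 78 genes. Stretches of 100 bases directly before the start site are printed 5′ to 3′ on the strand of the gene for 6 genes described below. Capitals mark matches to the NRF1 motif GCGCANGCGC in the first 3 (on the opposite strand in Mrpl12) and to the ETS motif CCGGAAG in the last 3.
Mrpl12 (chr11:120484537-120484636, plus strand): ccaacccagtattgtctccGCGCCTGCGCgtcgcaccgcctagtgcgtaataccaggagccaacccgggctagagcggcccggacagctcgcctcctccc
Mrpl32 (chr13:14613038-14613137, minus strand): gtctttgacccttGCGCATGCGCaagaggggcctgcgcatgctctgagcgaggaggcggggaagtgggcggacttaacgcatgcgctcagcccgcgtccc
Mrpl44 (chr1:79775918-79776017, plus strand): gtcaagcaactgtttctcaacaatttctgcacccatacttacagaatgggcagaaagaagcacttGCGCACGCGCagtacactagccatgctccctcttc
Mrpl3 (chr9:105053168-105053267, plus strand): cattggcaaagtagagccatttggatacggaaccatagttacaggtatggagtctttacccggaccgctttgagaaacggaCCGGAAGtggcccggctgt
Mrps18a (chr17:46110904-46111003, plus strand): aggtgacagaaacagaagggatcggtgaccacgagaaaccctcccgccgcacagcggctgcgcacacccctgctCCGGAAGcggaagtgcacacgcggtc
Mrps22 (chr9:98601680-98601779, minus strand): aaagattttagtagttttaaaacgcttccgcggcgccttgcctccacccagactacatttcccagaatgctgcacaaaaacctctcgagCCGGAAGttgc

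Over the whole window and both strands, the NRF1 motif was found in 13 of the 69 genes (18.8%), against 7.17% of protein-coding genes with a window. The ETS motif was found in 26 (37.7%), against 12.9%. The YY1 motif ATGGCGG was found in 13 (18.8%), against 6.05%. The ERR half-site AAGGTCA was found in 4 (5.8%), against 4.73%. At least 1 of the 4 motifs was present in 44 genes (63.8%), against 26.4% of protein-coding genes, and matches of different motifs did not overlap in any of the 69 genes. These shares describe letters in the reference and not binding in these cells, and the motifs were chosen after their shares had been seen.

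No mitoribosomal protein gene passed the test for a difference between the groups. All 78 were well above background on all 6 arrays by their brightest probe, and 76 could be tested. Limma with Benjamini-Hochberg adjustment over all 40745 probes called 0 of the 76 at the threshold of 0.05, where the lowest adjusted value among them was 0.700. No probe of the array passed either (0%). At an unadjusted p below 0.05 there were 0 of 76, against 5.94% of all tested genes. With 3 samples a group, the exact permutation test cannot give a p below 0.1.

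The differences were also small in size. They ran from -0.89 (Mrps2) to 0.40 (Mrpl44), and 70 of the 76 lay between -0.20 and 0.45. Only Mrps2 and Mrpl42 differed by more than 0.5 in either direction, 2 of 76 (2.63%) against 15.1% of all tested genes. The 95% interval lay within -1 to 1, that is within a doubling or halving, for 70 of 76 genes (92.1%), against 67.6% of all tested genes. The median SD within groups was 0.27 for these genes and 0.32 for all tested genes, and the median SE was 0.23 and 0.28. The genes compared were not matched for brightness or spread.

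**Figure D1:**
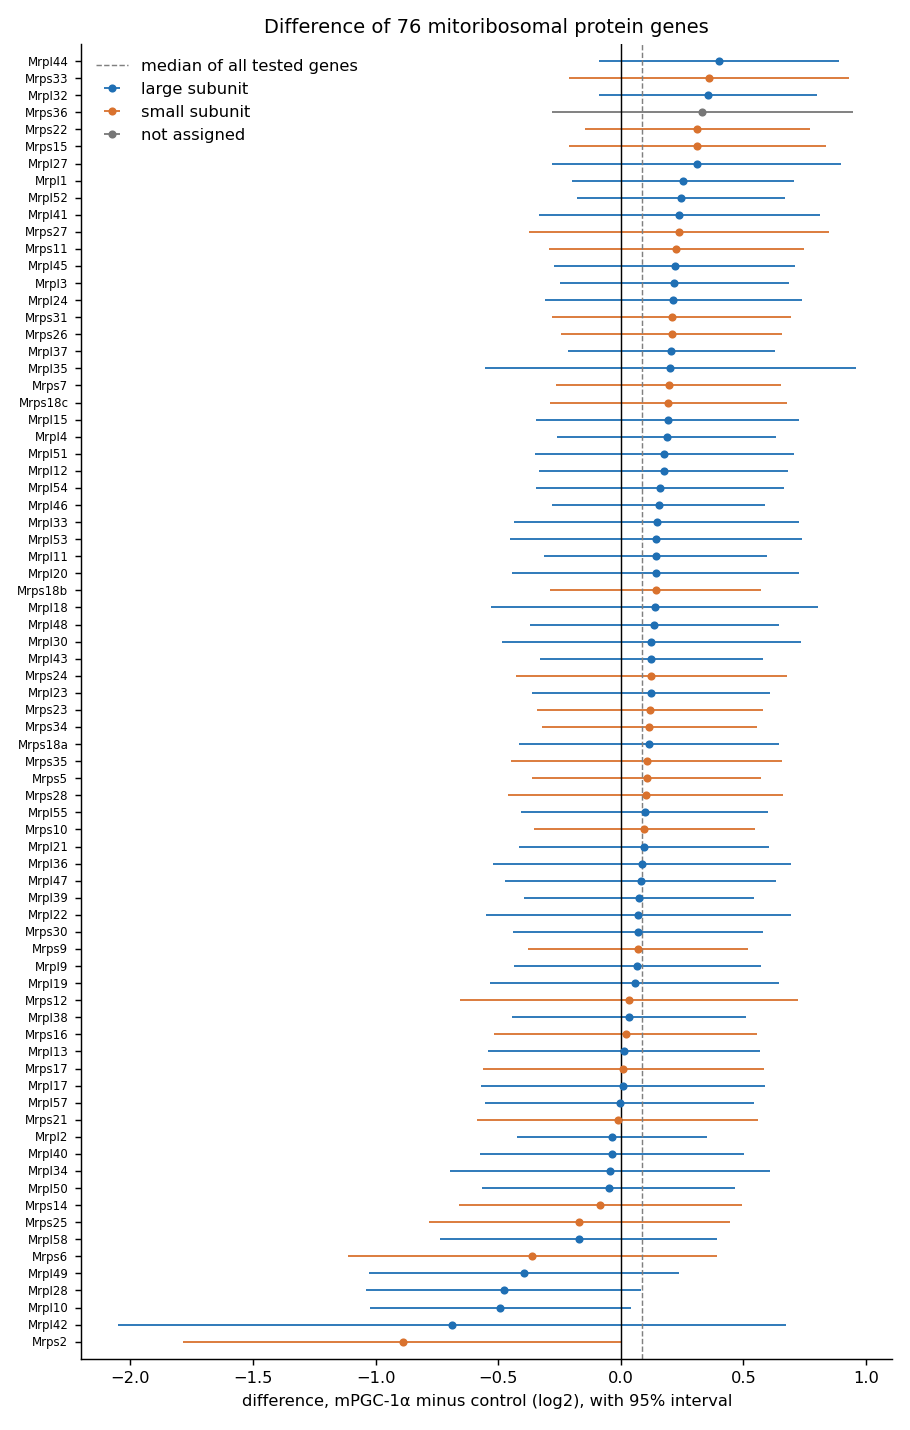
Difference between mPGC-1α and control microglia on the log2 scale (horizontal axis) for each of the 76 tested genes, ordered by difference, with bars for the 95% interval from limma and colour for the subunit. All intervals include 0, most points lie between -0.20 and 0.45, and the intervals of Mrps2 and Mrpl42 are the widest among the lower values.

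Most of the small differences pointed one way. Of the 76 genes, 61 (80.3%) were higher in mPGC-1α samples, against 61.7% of all tested genes, and their median difference was 0.12, against 0.09 for all tested genes. With quantile normalization, normexp or the authors' matrix in place of the percentile, 54, 52 and 53 of 76 were higher, and with the percentile over unmarked probes 67. The shares over all tested genes in these alternatives are not given here, so these counts cannot be set beside 61.7%. With quantile normalization the median difference of the mitoribosomal genes was lower than that of all tested genes. The share of higher genes changed with the control arrays that were kept. Without control array 1, 32 of 73 genes were higher, against 51.7% of all tested genes, and the median was -0.03. Without control 2, 64 of 74 were higher (86.5%), against 68.3%, and the median was 0.24, against 0.20 for all tested genes. Within slide 1 the median was 0.10 and 52 of 76 genes were higher (68.4%), against 0.07 and 59.3% of all tested genes. Within slide 2, with 1 array a group, it was 0.23 and 49 of 63 were higher (77.8%), against 0.10 and 59.8%.

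The genes varied together from array to array. Measured against its own mean over the 6 arrays, the median gene was at -0.31, 0.19 and -0.06 on control arrays 1 to 3 and at -0.06, 0.12 and 0.17 on mPGC-1α arrays 1 to 3. The highest and the lowest of these medians were thus both control arrays, and the groups overlapped. The medians of all tested genes were -0.18, 0.15, -0.10, 0.06, 0.09 and -0.02 on the same arrays. Among the 61 mitoribosomal genes with 6 values, control array 1 was the lowest of the 6 arrays for 40 (65.6%), against 32% of all genes with 6 values, and control array 2 was the highest for 25 (41%), against 33.8%. The SD of the control samples exceeded that of the mPGC-1α samples for 49 of the 61 (80.3%), against 68.7%, with medians of 0.34 and 0.19.

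**Figure D2:**
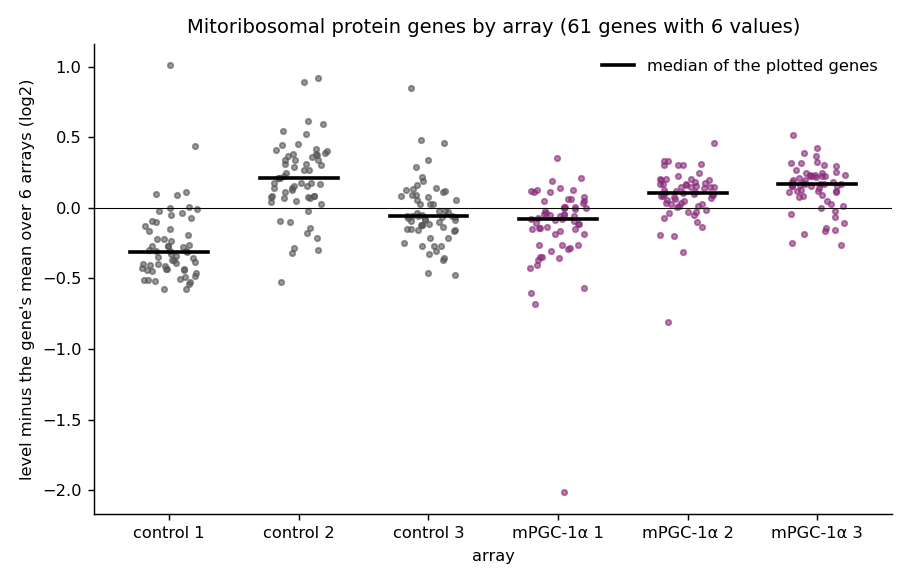
Level of each of the 61 genes with 6 values, minus that gene's mean over the arrays (log2, vertical axis), on each array (horizontal axis), with a bar at the median. The medians are -0.32, 0.21 and -0.06 in control samples and -0.08, 0.10 and 0.17 in mPGC-1α samples, and the single low point of mPGC-1α array 1 is Mrpl42.

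The large and the small subunit had similar medians. Of 49 tested large-subunit genes, 39 were higher in mPGC-1α samples with a median difference of 0.12, and of 26 small-subunit genes 21 were higher with a median of 0.11. The 44 tested genes with a bacterial homologue had a median of 0.10 (36 higher), and the 31 specific to mitochondria had a median of 0.14 (24 higher). The paralogues Mrps18a, Mrps18b and Mrps18c were split between these classes, with Mrps18b counted as specific to mitochondria and the others as bacterial homologues. The 10 small-subunit genes specific to mitochondria had the highest median of these classes, 0.17, with 9 higher. None of these classes held a gene that passed the test, and differences between classes were not tested.

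Genes with and without the factor motifs in their promoters had medians close to each other. The median was 0.10 for 12 tested genes with the NRF1 motif and 0.12 for 55 without, 0.14 for 26 genes with the ETS motif and 0.10 for 41 without, and 0.11 for 13 genes with the YY1 motif and 0.12 for 54 without. The 4 genes with the ERR half-site had a median of 0.13. These are descriptions of few genes and carry no test.

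Mrps2, a small-subunit protein with a bacterial homologue needed for assembly of that subunit, had the lowest difference. Its brighter probe read -0.05, -1.58 and -0.21 in control samples and -1.32, -1.86 and -1.31 in mPGC-1α samples. Control 2 lay among the mPGC-1α samples, while the other 2 control samples lay above all 3. The difference was -0.89 (SE 0.40, 95% interval -1.79 to 0.01, adjusted p = 0.700 by limma). Without control 2 it was -1.37 (SE 0.24, adjusted p = 0.015), and Mrps2 was then the only one of 74 mitoribosomal genes to pass, against 3.41% of tested genes and 5.42% of all probes. At an unadjusted p below 0.05 there were then 9 of 74, against 20.4%. The dimmer probe of Mrps2 read -1.20, -1.21 and -1.56 in control samples and -1.20 and -1.35 in mPGC-1α samples 1 and 2, with the spot on array 3 marked as an outlier. Its difference was 0.05 (SE 0.27) and 0.11 (SE 0.24) without control 2, so that the 2 probes of this gene disagreed.

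With the replicate number as a block, as the arrays of one number deviated together, 0 of the 76 genes passed at an adjusted p below 0.05, against 0.00245% of all probes. At an unadjusted p below 0.05 there was then 1 gene, Mrps2 (adjusted p = 0.17 by limma), against 9.95% of all tested genes. By its brighter probe Mrps2 was lower in the mPGC-1α sample in 3 of 3 pairs, as were Mrpl10 and Mrpl28. The dimmer probe of Mrps2 differed by 0.05 in the fit without a block.

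Mrpl42, a protein of the large subunit specific to mitochondria, had the next lowest difference, -0.69 (SE 0.61, adjusted p = 0.85 by limma). Its level was 0.96, 1.89 and 1.09 in control samples and -1.05, 1.43 and 1.48 in mPGC-1α samples. A single array, mPGC-1α 1, set this value, and without it the difference was 0.15. The spot was well above background on all 6 arrays. On the same array Ndufs5, a complex I subunit compared below, read -9.21 against 1.27 to 2.18 on the other arrays. The other 3 of the 5 lowest genes were Mrpl10, Mrpl28 and Mrpl49, all of the large subunit. Mrpl10, which anchors the L12 stalk proteins that recruit translation factors, read 1.20, 0.59 and 1.25 in control samples and 0.34, 0.56 and 0.65 in mPGC-1α samples. As for Mrps2, control 2 lay with the mPGC-1α samples. The difference was -0.49 (SE 0.24, adjusted p = 0.73 by limma), and -0.70 (adjusted p = 0.072) without control 2. Its dimmer probe also read lower in mPGC-1α samples, by -0.20 (SE 0.20). Mrpl28 differed by -0.48 (SE 0.25) and Mrpl49 by -0.40 (SE 0.28). The spot of Mrpl49 on control array 3 was marked as an outlier, and with it kept the difference was -0.55.

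The 5 highest genes were Mrpl44, Mrps33, Mrpl32, Mrps36 and Mrps22. Mrpl44, a large-subunit protein with an RNase III-like fold, read 0.38, 0.20 and 0.06 in control samples and 0.32, 0.72 and 0.80 in mPGC-1α samples, and the groups overlapped. The difference was 0.40 (SE 0.22, 95% interval -0.09 to 0.89, adjusted p = 0.76 by limma). The dimmer probe of Mrpl44 differed by only 0.04 (SE 0.22), and by -0.04 (SE 0.19) without control 2. Mrps33, of the small subunit, differed by 0.36 (SE 0.25) by its brightest probe, whose spot on control array 2 was marked as an outlier. With that spot kept, the difference was 0.16. The next probe of Mrps33 differed by 0.09 (SE 0.24) and the dimmest by 0.04 (SE 0.30). Mrpl32, whose maturation by the m-AAA protease is a known step of ribosome assembly, read 1.80, 2.23 and 1.87 in control samples and 2.49, 2.17 and 2.29 in mPGC-1α samples, a difference of 0.36 (SE 0.20). Mrps36 differed by 0.33 (SE 0.27), with its spot on mPGC-1α array 3 marked as an outlier. With that spot kept, the difference of Mrps36 was 0.23. None of these passed the test.

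In 2 of the 61 genes with 6 values, Mrps22 and Mrpl1, all mPGC-1α samples lay above all control samples, against 11.2% of all genes with 6 values whose groups did not overlap in either direction. Mrps22, a small-subunit protein specific to mitochondria, read 0.41, 0.64 and 0.20 in control samples and 0.72, 0.65 and 0.82 in mPGC-1α samples. The gap between control 2 and mPGC-1α 2 was narrow. The difference was 0.31 (SE 0.20, adjusted p = 0.80 by limma, exact permutation p = 0.1, the smallest possible), and the dimmer probe gave 0.27 (SE 0.26). Mrpl1, a large-subunit protein that forms a mobile stalk in its bacterial homologue, read -0.08, 0.11 and -0.20 in control samples and 0.28, 0.15 and 0.16 in mPGC-1α samples, a difference of 0.25 (SE 0.20). Its other probe differed by 0.23 (SE 0.23).

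**Figure D3:**
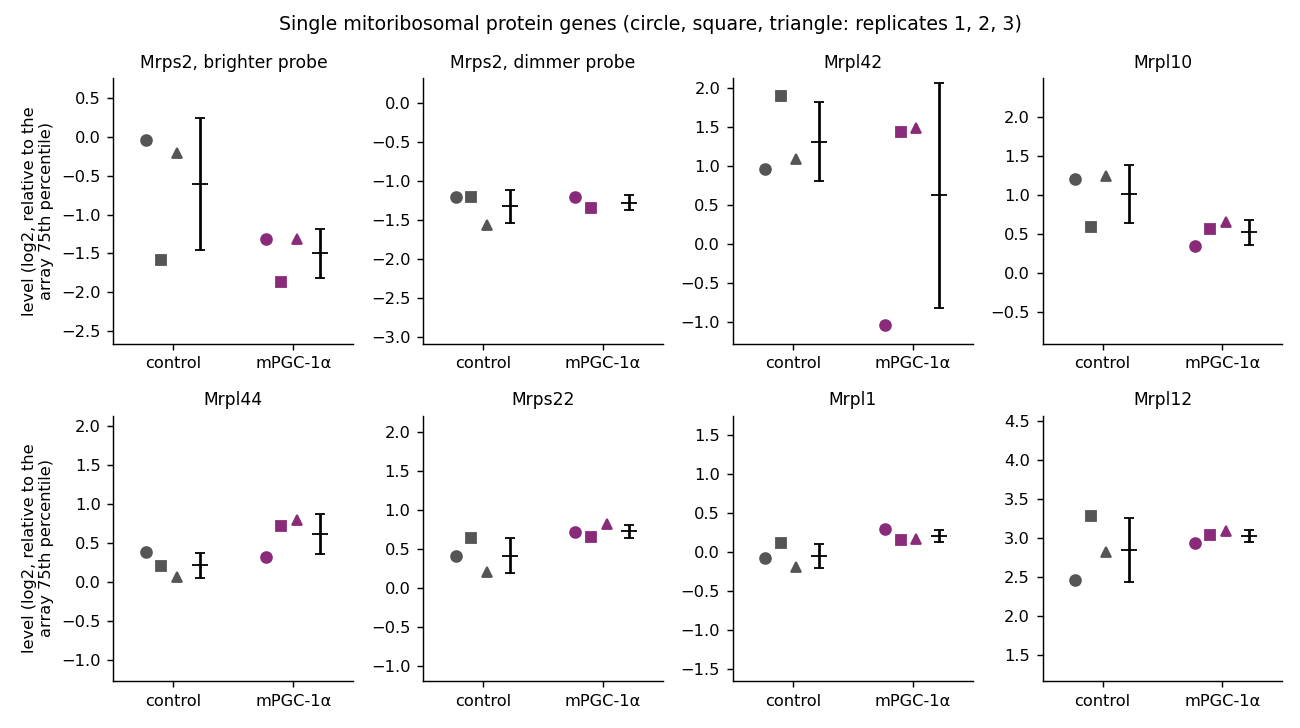
Level of single probes (log2 relative to the 75th percentile of the array, vertical axis, all panels spanning the same range) in control and mPGC-1α samples, with the mean and SD beside the points and a symbol for each replicate number. In Mrps2 (brighter probe) and Mrpl10 the square of control 2 lies at the level of the mPGC-1α samples, and in Mrpl42 a single mPGC-1α sample lies at -1.05.

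Proteins of the decoding and the catalytic centre had small differences. Mrps12, the homologue of the bacterial decoding-site protein S12, read 1.28, 2.41 and 1.64 in control samples and 1.43, 1.89 and 2.12 in mPGC-1α samples. The control samples spanned the whole range, and the difference was 0.04 (SE 0.31). Mrps5 and Mrps7, also of the small subunit, differed by 0.10 (SE 0.21) and 0.19 (SE 0.20). Mrpl2, which lies near the peptidyl transferase centre, differed by -0.04 (SE 0.17, 95% interval -0.42 to 0.35), the narrowest error of the 76 genes. Mrpl3, a neighbour in the large subunit, differed by 0.22 (SE 0.21).

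Other proteins of the stalk and those of the exit tunnel were set beside Mrpl10. Mrpl12, a stalk protein that is also known to bind mitochondrial RNA polymerase, read 2.45, 3.27 and 2.81 in control samples and 2.94, 3.04 and 3.09 in mPGC-1α samples. Both the lowest and the highest value were control samples, and the difference was 0.17 (SE 0.23). Mrpl11, at the base of the stalk, differed by 0.14 (SE 0.20). Of the proteins around the exit of the tunnel, Mrpl22, Mrpl23 and Mrpl24 differed by 0.07 (SE 0.27), 0.12 (SE 0.22) and 0.21 (SE 0.23), and Mrpl45, which binds the ribosome to the inner membrane, by 0.22 (SE 0.22). Mrpl27, whose bacterial homologue reaches into the catalytic centre, differed by 0.31 (SE 0.26) by its brightest probe, by 0.08 (SE 0.28) by the next and by 0.00 by the dimmest.

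The paralogues Mrps18a, Mrps18b and Mrps18c, of which the first lies in the large and the others in the small subunit, differed by 0.11 (SE 0.24), 0.14 (SE 0.19) and 0.19 (SE 0.21). Proteins specific to mitochondria that are known for roles beyond the core, such as Mrps27, a pentatricopeptide repeat protein, Mrps30 and Mrps34, differed by 0.24 (SE 0.27), 0.07 (SE 0.23) and 0.12 (SE 0.20). Mrpl58, a peptidyl-tRNA hydrolase built into the large subunit that rescues stalled ribosomes, read lower, by -0.17 (SE 0.25). Mrpl14 and Mrpl16 were not tested, because the spots of mPGC-1α samples 2 and 3 were marked as outliers. With the marked spots kept, they differed by 0.35 and 0.50.

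Of the 76 tested genes, 53 had 1 tested probe and 23 had several. The probes had the same sign in 16 of the 23 genes and differed in sign in 7, namely Mrpl9, Mrpl27, Mrpl38, Mrps2, Mrps9, Mrps17 and Mrps23. In 3 of these the dimmer probe had a pattern like that of Mrps2 in its brighter one. For Mrps9 it read -0.37, -1.60 and -0.43 in control samples and -1.10, -1.41 and -0.85 in mPGC-1α samples. For Mrpl9 it read 1.37, 0.52 and 1.41 in control samples and 0.68, 0.90 and 0.72 in mPGC-1α samples. For Mrpl38 it read 0.05, -1.03 and -0.43 in control samples and -0.78, -1.23 and -0.64 in mPGC-1α samples. In each case control 2 lay below or among the mPGC-1α samples, which lay below control samples 1 and 3. By the brighter probe of the same genes the mPGC-1α samples overlapped with control samples 1 and 3 for Mrps9 and Mrpl38, and with control sample 1 for Mrpl9, whose spot on control array 3 was marked as an outlier. The 3 genes were picked for this resemblance after their values were seen.

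The other genes of mitochondrial translation gave no call either. Of 64 listed genes 63 were tested, 37 were higher in mPGC-1α samples, the median difference was 0.09, and 0 had an adjusted p below 0.05. At an unadjusted p below 0.05 there were 2 of 63, against 5.94% of all tested genes, both higher and both in the list of assembly and rRNA maturation factors. Malsu1, an assembly factor of the large subunit, read 1.44, 1.80 and 1.62 in control samples and 2.06, 2.28 and 1.99 in mPGC-1α samples, a difference of 0.49 (SE 0.19, adjusted p = 0.68 by limma). Trub2, a pseudouridine synthase, differed by 0.47 (SE 0.21). The groups did not overlap in 11 of the 63 genes (7 higher and 4 lower), against 11.2% of all genes.

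By role, the 5 mitoribosomal subunits with other symbols (Dap3, Ptcd3, Chchd1, Aurkaip1 and Gadd45gip1) were all higher, with a median of 0.17 and no call. The median was 0.09 for 15 initiation, elongation, termination and recycling factors (9 higher) and 0.10 for 26 assembly and maturation factors (17 higher). For the 17 mitochondrial aminoacyl-tRNA synthetases, which charge the tRNAs, the median was -0.09 and 6 were higher. Lars2, the leucyl enzyme, read -0.95, -1.11 and -0.81 in control samples and -1.55, -1.57 and -1.21 in mPGC-1α samples, a difference of -0.48 (SE 0.23, adjusted p = 0.72 by limma). Without control 2, one gene of the 63 passed, Guf1, an elongation factor of the LepA family, at -0.99 (SE 0.22, adjusted p = 0.046 by limma), against 3.41% of all tested genes in that fit.

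Among 13 coactivators and factors of mitochondrial biogenesis and mitochondrial transcription, 9 were higher (69.2%), against 61.7% of all tested genes. Their median was 0.30, against 0.09 for all tested genes, and 0 passed the test. Esrra, which encodes ERRα, read 2.27, 2.71 and 2.11 in control samples and 2.69, 2.86 and 2.65 in mPGC-1α samples, a difference of 0.37 (SE 0.21). Of the GABP genes, Gabpa differed by 0.26 (SE 0.22), Gabpb2 by 0.36 (SE 0.29) and Gabpb1, the lowest of the list, by -0.52 (SE 0.27). Nrf1 differed by -0.18 (SE 0.26) and Tfam, the packaging factor of mitochondrial DNA, by -0.17 (SE 0.25). Polrmt, the mitochondrial RNA polymerase, differed by 0.45 (SE 0.23).

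Cytosolic ribosomal proteins and subunits of respiratory complex I were set beside the mitoribosomal proteins. Of 82 tested cytosolic ribosomal protein genes, 79 were higher in mPGC-1α samples with a median difference of 0.20, and of 35 complex I genes, 26 were higher with a median of 0.07. Neither list held a gene with an adjusted p below 0.05. The groups did not overlap in 0 of 48 and 0 of 24 genes with 6 values, against 11.2% of all such genes. Control array 1 was the lowest of the 6 arrays for 45 of the 48 cytosolic ribosomal protein genes (93.8%) and for 18 of the 24 complex I genes (75%), as for 40 of the 61 mitoribosomal genes. Differences between these lists were not tested.

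**Figure D4:**
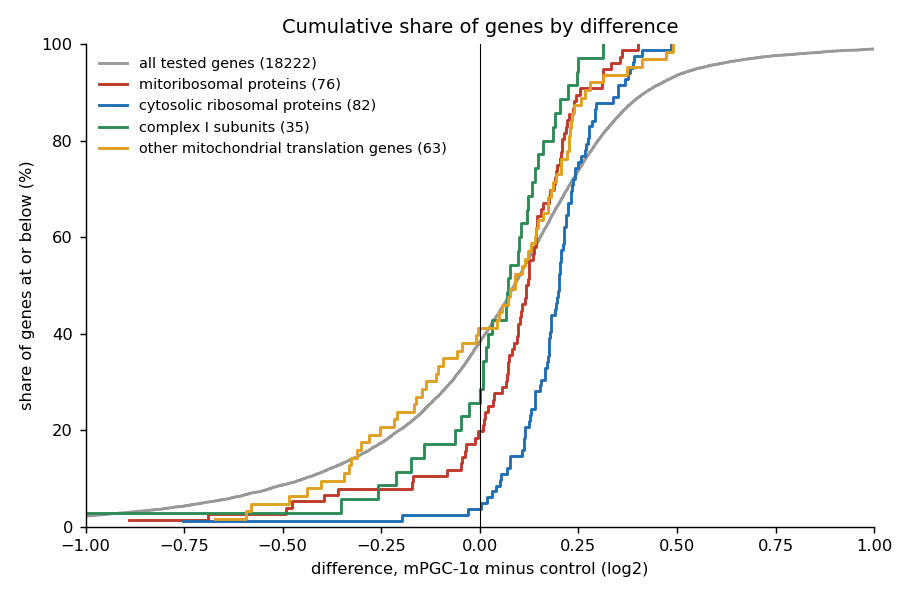
Cumulative share of genes (vertical axis, %) by difference between mPGC-1α and control samples (log2, horizontal axis, cut at -1 and 1) for all tested genes and 4 gene lists. The curve of the mitoribosomal proteins is steeper than that of all tested genes, with 80.3% against 61.7% of genes above 0, and that of the cytosolic ribosomal proteins lies further right, with 79 of 82 above 0.

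Markers of other brain cells were mostly higher in mPGC-1α samples. Of 19 neuronal markers 17 were higher, with a median difference of 0.77 and a summed level of 5.22 to 5.90 in control samples against 5.84 to 6.11. Of 15 oligodendrocyte markers 13 were higher (median 0.80, summed level 3.72 to 4.33 against 4.56 to 5.12), and of 11 tested astrocyte markers 10 were higher (median 0.73, 3.93 to 4.42 against 4.53 to 5.88). The neuronal and astrocytic markers Snap25 and Aldoc were well above background on all 6 arrays. None of these markers had an adjusted p below 0.05, while 9 neuronal, 5 oligodendrocyte and 6 astrocyte markers had an unadjusted p below 0.05, against 5.94% of all tested genes. Without control 2, 2 of 19 neuronal, 4 of 15 oligodendrocyte and 0 of 11 astrocyte markers passed the adjusted threshold, against 3.41% of all tested genes. In that fit 2 of 11 microglial, 1 of 14 monocyte and macrophage and 1 of 9 endothelial and mural markers passed too. For neutrophil, lymphocyte and erythrocyte markers the count was 0. Of 14 monocyte and macrophage markers 3 were higher (median -0.18), of 8 neutrophil markers 3, of 9 endothelial and mural markers 7, of 12 lymphocyte markers 7 and of 5 erythrocyte markers 3. The part of other cells in the levels of the mitoribosomal genes was not tested, and in bulk samples a change in the number of cells of a type and a change in RNA per cell cannot be told apart.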

How the data were processed

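Microglia from 3 control and 3 mPGC-1α samples had been profiled on one-colour Agilent arrays. Groups and replicate numbers came from the labels, which name Cy3 in one field and Cy5 in another; the single green channel was used. The deposited scanner files give a linear intensity for each spot (Agilent Feature Extraction, version 11.5.1.1), background-subtracted and not normalized between arrays. The authors' series matrix holds log2 values of 46731 probes, normalized between arrays, and correlated with the log2 processed signal at r of 0.999 or more.

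In R 4.3.3, each processed signal was divided by the 75th percentile over all non-control spots of its array and log2 was taken. That percentile was between 926.6 and 1539.8 intensity units. Spots marked as outliers (0.926% to 8.31% per array) were then left out, except from summed levels and where stated. Replicate spots were averaged per probe, and 0 spots were saturated. The percentile was taken before this step because marked spots were the brightest (median 9758.9 to 15147.4 units, against 115.1 to 221.3 for the others) and were most frequent on slide 2; the percentile over unmarked probes is given as an alternative. Tested probes had at least 2 values in each group and, in at least one group, were well above background on every unmarked array (40745 of 56605 probes, 3750 lacking a value). Names were taken through accessions in a RefSeq table of GRCm38.p6 (33767 probes, 59.7%), and no coordinates of probes are given because the array grid used an older build; promoter coordinates are those of the RefSeq table. The group difference was fitted in limma 3.58.1 with lmFit, followed by eBayes using an intensity trend (two-sided; Benjamini-Hochberg over all tested probes; threshold 0.05), and single genes also with an exact permutation test over 20 assignments; the script was tested on simulated data. The methods name no test for the arrays. The brightest tested probe stood for a gene. The number of arrays limits the precision.

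Samples with the same replicate number deviated together from their group means (correlations of 0.25, 0.22 and 0.17 over 36995 probes, against -0.34 to 0.03 for unlike numbers), and were treated as pairs in the blocked alternative; no label states a shared day or litter. Mitoribosomal genes named in the text were mainly 27 chosen for their role, the 5 highest and the 5 lowest, with other probes that went the other way. Mrpl1 and Mrps22 are named also as the genes whose groups did not overlap. Mrps9, Mrpl9 and Mrpl38 were picked after their values were seen. Mrps17 and Mrps23 are named only because their probes differed in sign, and Mrpl14 because it was not tested. The genes and all lists were chosen with earlier results of these data known.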

Additional observations from a re-analysis of the deposited data

How the results depend on the processing

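No mitoribosomal gene and no other gene of mitochondrial translation passed the test under any alternative that kept all 6 arrays. Leaving out 1 array at a time gave 0 to 1 mitoribosomal genes called, 0 to 9 at an unadjusted p below 0.05, 0 to 1 translation genes called and a median difference of -0.03 to 0.24. The 1 and 9 came from leaving out control 2, which also gave 2130 calls over all probes. The count at an unadjusted p below 0.05 was 1 in place of 0 without a filter on dim probes, with probes well above background on all 6 arrays, with the replicate block, and with the replicate block after quantile normalization or with marked spots kept. It was 2 with the 75th percentile over unmarked probes and the replicate block, where 1720 probes of the array had an adjusted p below 0.05. Of all tested genes, 5.94% had an unadjusted p below 0.05 in the main fit and 9.95% with the replicate block. The shares over all genes in the other alternatives with 6 arrays are not given here. The replicate block changed no other call. The 4 alternatives with that percentile or with a second change beside the block were chosen after seeing the data. Over the alternatives that kept all 6 arrays the median difference ran from 0.05 (quantile normalization, 0.07 for all genes) to 0.21.

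Of the named genes' values under the alternatives, 559 kept direction and side of the threshold, 31 changed sign, and Mrps2 passed once. Under quantile normalization Mrps12 was at -0.028 and Mrps18a at -0.016, the same with the replicate block, where Mrpl24 was at -0.026. After normexp, Mrpl22, Mrps12 and Mrps18a were at -0.011, -0.035 and -0.038. In the authors' matrix Mrps12, Mrps18a and Mrps7 were at -0.022, -1e-04 and -0.024. Averaging the tested probes of each gene put Mrpl22 at -0.0049 and Mrps7 at -0.29, where only the dimmer probe of Mrps7 had a value on mPGC-1α array 3. With the percentile over unmarked probes Mrpl2 was at 0.060, with and without the block. Leaving out 1 array at a time gave ranges that crossed 0 for Mrpl2 (-0.14 to 0.034), Mrpl12 (-0.022 to 0.39), Mrpl22 (-0.14 to 0.20), Mrpl23 (-0.058 to 0.26), Mrpl42 (-1.12 to 0.15), Mrpl58 (-0.41 to 0.047), Mrps7 (-0.0088 to 0.22), Mrps12 (-0.21 to 0.35), Mrps18a (-0.12 to 0.34), Mrps30 (-0.070 to 0.26) and Mrps33 (-0.082 to 0.47).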
